A study of Mus musculus with 10 samples.

Results

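The genes of the BCL2 family, whose proteins set whether a cell survives or undergoes mitochondrial cell death, were compared between mouse cardiomyocytes that carried dnMKL1 and cardiomyocytes that carried GFP alone. The members were chosen by gene symbol, as 10 rows of the 23337 genes in the authors' deposited table: Bcl2, Bcl2l1, Mcl1, Bax, Bak1, Bbc3, Pmaip1, Bcl2l11, Bid and Bnip3. All 10 were found there, and all 10 had an adjusted p-value. In dnMKL1 libraries 5 of them rose (Bcl2, Bcl2l1, Bax, Bbc3 and Pmaip1), 0 fell, and the other 5 did not pass the test. Among all 14056 genes with an adjusted p-value, 16.6% rose and 17.4% fell.

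dnMKL1 is a dominant-negative form of MKL1 (also called MRTF-A), a coactivator of serum response factor (SRF). The mice were wild type and received, on postnatal day 1, an adeno-associated virus of serotype AAV9 at 5e+08 viral genomes per gram of body weight. In the dnMKL1 group the virus carried dnMKL1 and GFP, in the GFP group GFP alone, and in both groups the cTNT (cardiac troponin T) promoter drove expression in cardiomyocytes. Cells were taken on postnatal day 14 and sorted by fluorescence, and each group had 5 libraries that the labels' design text calls biological replicates. Both groups therefore shared the vector, GFP, the sort and the age, and no uninjected group was compared.

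BCL2 proteins act at the outer membrane of the mitochondrion. Pro-survival members (BCL2, BCL-XL encoded by Bcl2l1, and MCL1) hold the effectors BAX and BAK1 in check; once free, the effectors form pores that release cytochrome c and start the caspases. The BH3-only members (PUMA encoded by Bbc3, NOXA encoded by Pmaip1, BIM encoded by Bcl2l11, and BID) sense stress and tip the balance by binding the pro-survival proteins or the effectors. BNIP3 is an atypical BH3-only protein that also tethers mitochondria for removal by autophagy. Several of these genes are known targets of stress-response factors: Bax, Bbc3 and Pmaip1 of p53, Bnip3 of HIF1, Bcl2l11 of FOXO factors, while Bcl2 and Mcl1 have been described as SRF targets.

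Promoter sequence was examined because 5 members rose together and their known regulators are only partly shared. RefSeq (GRCm38.p6) gave 14 start-site windows for 9 of the 10 members, and the 250 bases before each start were searched on both strands. Pmaip1 had no window and was not searched. Stretches are shown from Bax, Bcl2 and Bbc3, which rose, and from Bcl2l11 and Bnip3, which did not pass the test. The stretches shown hold matches to motifs tied to the known regulators, or the GC boxes that dominate the start sites of Bcl2 and Bbc3. They are printed 5′ to 3′ on the gene's own strand, with the matches in capitals. Capitals mark the p53 decamer (a single repeat of the p53 response element) in Bax, GGGCGG (the GC box) or its reverse complement in Bcl2 and Bbc3, GTAAACA (the FOXO motif) in Bcl2l11, and ACGTG (the core of the hypoxia response element) on both strands, which overlap there, in Bnip3.
Bax, chr7:45467070-45467119, minus strand: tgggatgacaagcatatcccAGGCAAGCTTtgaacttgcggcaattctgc
Bcl2, chr1:106714291-106714523, minus strand: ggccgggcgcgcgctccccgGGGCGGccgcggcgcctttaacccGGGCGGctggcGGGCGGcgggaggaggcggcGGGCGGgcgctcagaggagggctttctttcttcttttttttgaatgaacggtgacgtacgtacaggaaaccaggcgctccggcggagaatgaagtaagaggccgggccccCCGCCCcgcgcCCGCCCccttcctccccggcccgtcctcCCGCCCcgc
Bbc3, chr7:16309409-16309582, plus strand: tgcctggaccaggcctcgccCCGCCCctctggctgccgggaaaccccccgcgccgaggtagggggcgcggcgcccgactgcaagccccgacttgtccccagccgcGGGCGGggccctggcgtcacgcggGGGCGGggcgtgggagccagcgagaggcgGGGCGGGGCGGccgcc
Bcl2l11, chr2:128125791-128125837, plus strand: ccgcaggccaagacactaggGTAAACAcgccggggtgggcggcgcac
Bnip3, chr7:138909589-138909634, minus strand: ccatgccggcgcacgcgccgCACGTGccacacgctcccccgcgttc

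The Bax match lay 201 to 192 bases before the start, the only p53 decamer in the 14 windows, against 7.13% of all 32851 windows of the same length. GGGCGG was present in 10 of the 14 windows, from 7 of the 9 members, and in 32.7% of all windows. The Bcl2 stretch held 7 copies and the Bbc3 stretch 5, the last of which overlap. The Bbc3 stretch comes from the first of several annotated starts' windows and lies in an intron of a longer Bbc3 transcript in GENCODE vM21; the Bax stretch lies in an intron of Gm45808, and neither overlaps an exon. ACGTG occurred in 3 of the 14 windows, of Bax, Bbc3 and Bnip3, and in 16.6% of all windows. GTAAACA occurred in 2 of the 14 windows, of Bcl2l11 and Bbc3, and in 3.17% of all windows. The windows of Bcl2l1, which rose, and of Bak1 held no match to any of these motifs. No window held a CArG box, the motif that SRF binds, which 1.47% of all windows held; this says only that those letters are not in the 250 bases searched. The GC content of the Bcl2 window was 74.8%, against a median of 52.4% over all windows. Among the member windows GC content ran from 47.6% in Bcl2l1 to 81.6% in Bbc3. Motif shares were not compared at like GC content.

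The table gives 1 fitted comparison per gene, and values of single libraries were not analysed here. The level of a gene is therefore given as an implied group mean, computed from the deposited base mean (the average normalized count over all libraries) and the fold change. A gene was called where the authors' adjusted p-value (DESeq2-type Wald test, Benjamini-Hochberg) was under 0.05. Positive log2 fold changes mean higher in dnMKL1, a direction read from Mkl1 itself, for which the authors' deposited table lists 9.80 (SE 0.15) with reads of vector and endogenous gene not separated. Estimated library totals ran from 8803028 to 17123577 counts for GFP and from 8835136 to 17228616 for dnMKL1. Over the 14056 genes with an adjusted p-value, 34.1% were called, 16.6% higher and 17.4% lower. The members stood at 5 of 10 higher and 0 lower, with 7 of 10 at an unadjusted p-value under 0.05. The shares over all tested genes are for adjusted p-values, and the share at the unadjusted threshold was not computed. The members' median log2 fold change was 0.64, beside 0.02 over all tested genes. When both groups were instead scaled to the same total, every log2 fold change rose by 0.29 and 8 of the 10 members were higher and 0 lower, against 47% of all tested genes called, 40.4% higher and 6.6% lower.

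**Figure D1:**
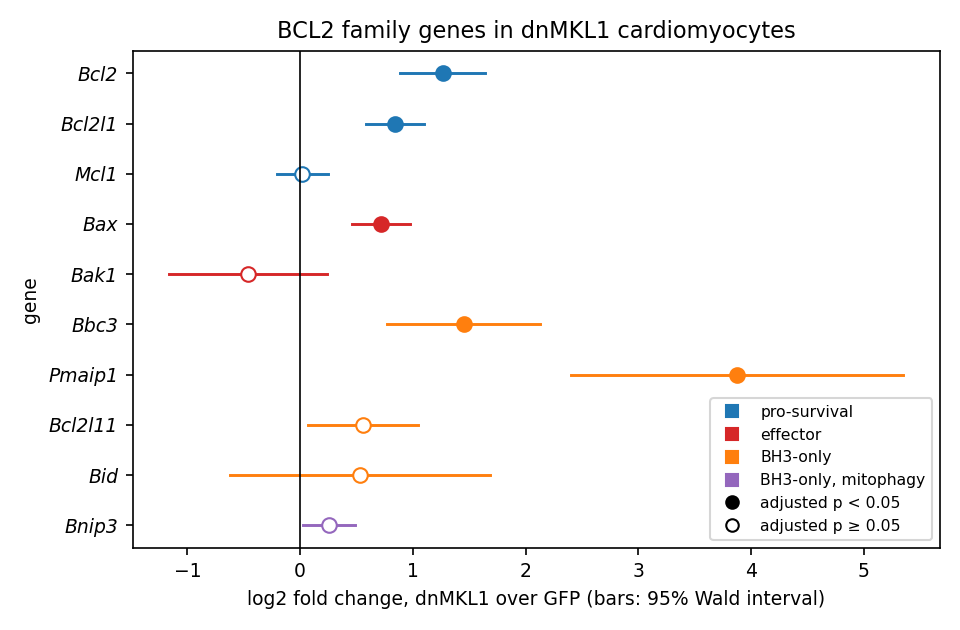
Log2 fold change (dnMKL1 over GFP, horizontal axis) of each of the 10 genes, with bars for the 95% Wald interval, colours for the class of protein and filled circles for an adjusted p-value under 0.05. The 5 filled genes lie to the right of 0, from 0.72 for Bax to 3.88 for Pmaip1, and Bak1 alone has a value below 0.

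Of the pro-survival genes, Bcl2 and Bcl2l1 rose and Mcl1 did not pass the test. Bcl2 (GRCm38, chr1:106538178-106714274, minus strand) encodes the protein for which the family is named. Its implied mean was 57.5 normalized counts in GFP libraries and 138 in dnMKL1 libraries. The authors' deposited table gave a log2 fold change of 1.27 (SE 0.19, adjusted Wald p = 1.06e-09), which is 2.41-fold with a 95% interval from 1.85 to 3.13. Of all tested genes, 4.68% had a higher fold change.

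Bcl2l1 (chr2:152780668-152831728, minus strand) encodes BCL-XL and, by splicing, the shorter pro-death form BCL-XS, which counts per gene do not separate. It went from 311 to 557 normalized counts, a 1.79-fold rise with an interval from 1.50 to 2.14. The authors' deposited table put its log2 fold change at 0.84 (SE 0.13, adjusted Wald p = 3.86e-09). The rise of Bcl2l1 is thus known about as precisely as that of Bax and more precisely than that of Bcl2.

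Mcl1 (chr3:95658788-95663176, plus strand) encodes a short-lived protein on which adult cardiomyocytes are known to depend. It was the most abundant of the 10 genes and had nearly equal implied means, 2722 normalized counts in GFP and 2760 in dnMKL1. The authors' deposited table listed a log2 fold change of 0.02 (SE 0.11, adjusted Wald p = 0.924), and the interval from -0.20 to 0.24 leaves room for small differences in either direction. Total-count scaling moved it to 0.31 with an adjusted p of 0.0179, so the call for Mcl1 rests on the scaling. In the GFP group Mcl1 made up 91.5% of the summed level of Bcl2, Bcl2l1 and Mcl1 per kilobase of exon, and in the dnMKL1 group 85.5%. Bcl2l2, a further family gene named after its values were seen, is not in that sum. Its implied means were 83.1 and 106 normalized counts.

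The effectors differed from each other in level and in outcome. Bax (chr7:45461697-45466898, minus strand) rose from an implied mean of 213 to 350 normalized counts, 1.65-fold with an interval from 1.37 to 1.97. The authors' deposited table lists its log2 fold change as 0.72 (SE 0.13, adjusted Wald p = 7.59e-07). Bak1 (chr17:27019810-27029009, minus strand) was at 21.6 and 15.7 normalized counts and was the 1 member with a negative value. The authors' deposited table gave it -0.46 (SE 0.36, adjusted Wald p = 0.348), and with that error a log2 difference under 0.85 could not have been called. Its sign was kept under total-count scaling, at -0.17. Per kilobase of exon, Bax stood at 15.0 times the level of Bak1 in GFP and at 34.1 times in dnMKL1; that ratio was not tested.

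The BH3-only genes held the largest rises of the family. Pmaip1 went from an implied mean of 2.47 normalized counts in GFP, which corresponds to about 12.1 reads over the 5 libraries together, to 36.3 in dnMKL1, about 202 reads. The authors' deposited table gave a log2 fold change of 3.88 (SE 0.75, adjusted Wald p = 2.94e-06). The interval of this rise ran from 5.29-fold to 40.8-fold, so its direction is better known than its size. Only 0.270% of tested genes had a higher fold change, yet the SE was 2.14 times the median of 200 genes of like base mean.

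Bbc3 (chr7:16308393-16318205, plus strand) rose from 19.1 to 52.1 normalized counts, 2.73-fold with an interval from 1.70 to 4.39. In the authors' deposited table this was a log2 fold change of 1.45 (SE 0.35, adjusted Wald p = 2.15e-04), with 3.45% of tested genes higher. PUMA, its product, binds every pro-survival member, whereas NOXA binds chiefly MCL1.

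Bcl2l11 (chr2:128126038-128162547, plus strand) had implied means of 353 and 521 normalized counts. The log2 fold change of 0.56 (SE 0.25) in the authors' deposited table had an unadjusted p of 0.0241 and an adjusted Wald p of 0.0668, and it was not called. The SE was 2.29 times the median of genes of like base mean, the largest such ratio among the members. Under total-count scaling its adjusted p was 0.00215. Bid (chr6:120891930-120916853, minus strand), which links death receptors to mitochondria once caspase-8 cleaves its protein, had the lowest base mean of the members, with implied means of 5.80 and 8.37 normalized counts. The authors' deposited table gave 0.53 (SE 0.59, adjusted Wald p = 0.552), and the interval from -0.63 to 1.69 spans both directions.

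Bnip3 (chr7:138890836-138909519, minus strand) had implied means of 1500 and 1791 normalized counts. The authors' deposited table gave it a log2 fold change of 0.26 (SE 0.12, unadjusted p = 0.0274, adjusted Wald p = 0.0742), short of the threshold. A log2 difference of 0.28 would have been called at that error. With total-count scaling its value was 0.54 and its adjusted p 1.63e-05.

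**Figure D2:**
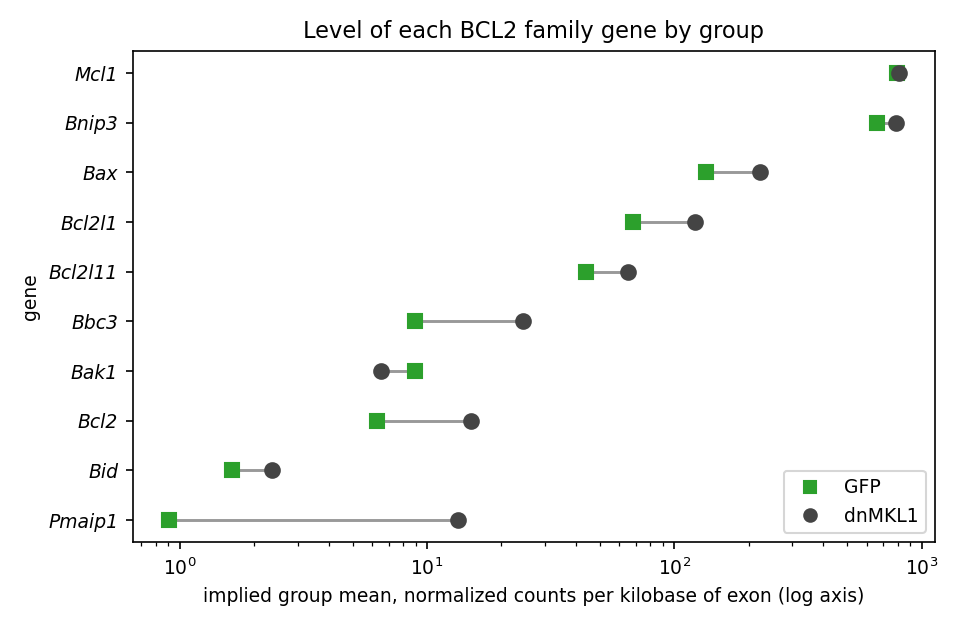
Implied group mean of each gene in normalized counts per kilobase of exon (log axis), with green squares for GFP and dark circles for dnMKL1. Mcl1 and Bnip3 lie furthest right in both groups, and Pmaip1 has the widest gap, from 0.906 to 13.3.

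Per kilobase of exon (the union of GENCODE vM21 exons), the family spanned a wide range of levels in GFP cardiomyocytes. Mcl1 stood at 796 normalized counts per kilobase and Bnip3 at 662. Bax followed at 135, then Bcl2l1 at 67.8 and Bcl2l11 at 44.0. Bbc3 and Bak1 were level at 8.97 and 8.96, and Bcl2 was at 6.28. Bid at 1.63 and Pmaip1 at 0.906 closed the order. In the dnMKL1 group the upper 5 places kept the same order, while Bcl2 at 15.1 and Pmaip1 at 13.3 stood above Bak1 at 6.51.

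A spread implied by the authors' fit was worked back from each SE and the libraries' recovered size factors. It is the coefficient of variation left after counting error. Such a fit can borrow from other genes, so this is a model value and not the observed spread of single libraries. The implied spread was 12.4% for Mcl1, 12.5% for Bnip3, 13.1% for Bax, 13.5% for Bcl2l1 and 17.8% for Bcl2. Bcl2l11 stood higher, at 26.8%, and the low genes Bak1, Bbc3, Bid and Pmaip1 were at 31.3%, 32.9%, 51.8% and 67.2%. The gap between Bbc3 and Bak1 in GFP was smaller than their implied spread, and neighbours in the order were not tested against each other.

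By class, summed levels per kilobase moved unequally. The sum of the BH3-only genes Bbc3, Pmaip1, Bcl2l11 and Bid went from 55.5 to 105, a ratio of 1.89. That of the effectors went from 144 to 229, a ratio of 1.59. The pro-survival sum went from 871 to 944, a ratio of 1.08, and without Mcl1 from 74.1 to 137, a ratio of 1.84. Relative to Bcl2, the level of Bax per kilobase was 21.5 times in GFP and 14.7 times in dnMKL1, and relative to Bcl2l1 it was 1.99 and 1.83 times. These sums cover members only and leave out further family genes, Bad (236 and 281 normalized counts) and Bok (27.1 and 60.9) among them. Bcl2l11, at 44.0 and 64.9 per kilobase, is in the BH3-only sum although it was not called. The sums describe the groups and carry no test.

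**Figure D3:**
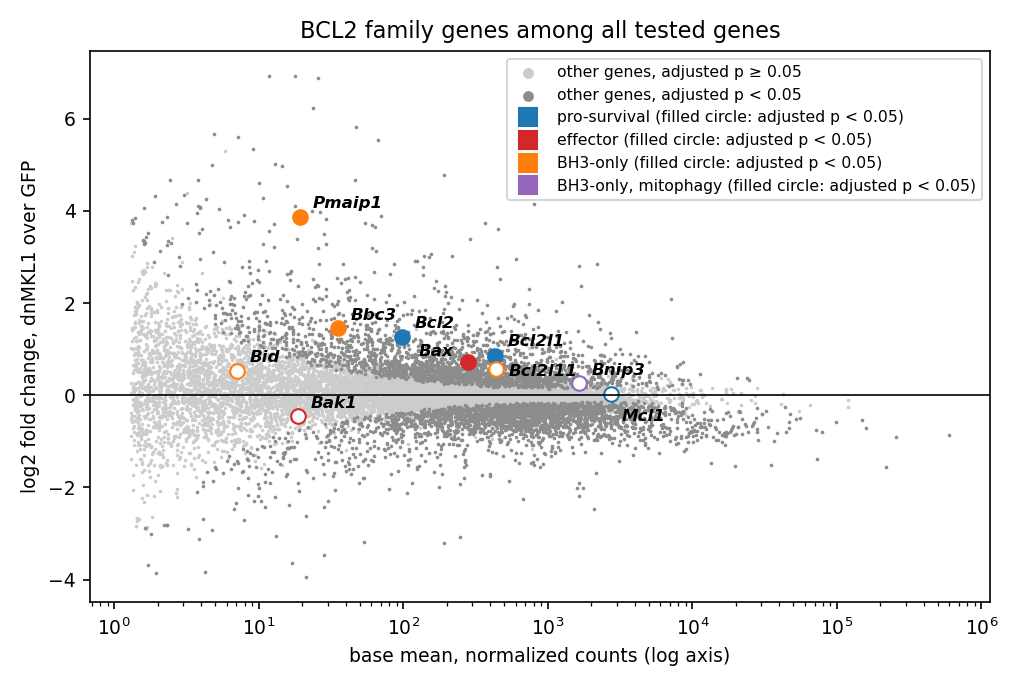
Log2 fold change against base mean (log axis) for all tested genes other than Mkl1 (grey, darker where called) and for the 10 BCL2 family genes (coloured by class, filled where called). The called members lie at base means from 19.4 to 434, and the most abundant ones, Mcl1 and Bnip3, lie near 0.

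Exons of 5 members overlap those of other genes in the GENCODE annotation, and the use of strand in counting is not given in the sources used here. For Bid, 17.7% of the exon bases overlap Bcl2l13, on the opposite strand, which had a base mean of 2198 in the authors' deposited table against 7.08 for Bid. For Bak1, 25.5% overlap Ggnbp1 (base mean 113), also on the opposite strand. Overlaps of 22.3% for Bnip3, 12.2% for Bax and 6.09% for Bcl2 were with annotated genes whose symbols are not among the rows. The values of Bid and Bak1 are uncertain for this reason.

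Further relatives of the family were measured too. Of 15 further BCL2 family genes, 9 had an adjusted p-value, and 2 rose and 1 fell, with a median log2 fold change of 0.25. That is a share near the 34.1% called over all tested genes. Bok, an effector-like gene, rose with a log2 fold change of 1.17 (SE 0.32, adjusted Wald p = 0.00143) in the authors' deposited table. Bnip3l, the mitophagy receptor closest to Bnip3, rose by 0.32 (SE 0.09, adjusted Wald p = 0.00113) in the authors' deposited table. Bcl2l13 fell, at -0.36 (SE 0.09, adjusted Wald p = 3.75e-04) in the authors' deposited table, a call that total-count scaling ended at -0.08. Bad, a BH3-only gene controlled by phosphorylation, was listed at 0.25 (SE 0.11, adjusted Wald p = 0.0621) in the authors' deposited table. Bcl2a1d was listed at 0, and Bcl2l10, Bcl2a1a, Bcl2a1b, Bcl2l14 and Bcl2l15 had base means too low for an adjusted p-value.

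Downstream of the effectors, several genes of mitochondrial death factors fell. Of 14 genes of cytochrome c release, the apoptosome and caspases, 6 fell and 2 rose. Over all tested genes 17.4% were lower and 16.6% higher. The authors' deposited table gave -0.97 (SE 0.16, adjusted Wald p = 8.55e-09) for Cycs, which encodes cytochrome c, and -0.88 (SE 0.10, adjusted Wald p = 3.12e-16) for Aifm1, a flavoprotein of the respiratory chain and a death factor. Dffa, the inhibitor of the caspase-activated nuclease, was at -0.74 (SE 0.11, adjusted Wald p = 3.43e-10) and Diablo, an antagonist of caspase inhibitors, at -0.39 (SE 0.07, adjusted Wald p = 8.77e-08) in the authors' deposited table; the call for Diablo ended under total-count scaling, at -0.10 (adjusted p = 0.211). Casp9, the initiator caspase of the apoptosome, was named after its values were seen and rose by 0.50 (SE 0.10, adjusted Wald p = 1.40e-05) in the authors' deposited table. The list's median was 0.18, positive although more members fell than rose. Under total-count scaling 7 of the list were higher and 4 lower, beside 40.4% and 6.6% of all tested genes.

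Genes of the mitochondrial and endoplasmic reticulum partners of BCL2 proteins divided in a similar way, with 7 of 14 lower and 3 higher. Over all tested genes 17.4% were lower and 16.6% higher. The list's median was -0.14 and turned to 0.15 under total-count scaling. There 7 were higher and 4 lower, beside 40.4% and 6.6% of all tested genes. The voltage-dependent anion channels fell: the authors' deposited table gave -0.53 (SE 0.08, adjusted Wald p = 5.12e-10) for Vdac1, -0.49 (SE 0.08, adjusted Wald p = 6.17e-09) for Vdac2 and -0.58 (SE 0.07, adjusted Wald p = 3.51e-14) for Vdac3. Ppif, which encodes cyclophilin D of the permeability transition pore, was at -1.07 (SE 0.17, adjusted Wald p = 3.24e-09) in the authors' deposited table. These 4 calls held under total-count scaling. The 3 that rose, named after their values were seen, were Bcap31, Itpr1 and Itpr2, genes of the endoplasmic reticulum.

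In the death receptor pathway 3 of 9 tested genes rose and 0 fell, with a median of 0.30, beside 16.6% higher and 17.4% lower over all tested genes. Tnfrsf10b, the receptor of TRAIL, rose by 1.44 (SE 0.33, adjusted Wald p = 1.27e-04) in the authors' deposited table, and the adaptors Tradd and Ripk1 rose by 0.76 (SE 0.17, adjusted Wald p = 4.29e-05) and 0.65 (SE 0.15, adjusted Wald p = 1.66e-04). Tnfrsf1a was listed at 0.37 (SE 0.19, adjusted Wald p = 0.128) in the authors' deposited table, and Fasl at 0. Under total-count scaling 8 were higher and 0 lower, beside 40.4% and 6.6% of all tested genes. Among 5 inhibitors of apoptosis 1 rose, Birc3, with 0.77 (SE 0.18, adjusted Wald p = 1.16e-04) in the authors' deposited table, and under total-count scaling 3 were higher. Xiap, at 0.30 (SE 0.21), Birc5, at -0.28 (SE 0.45), and Birc6, at -0.18 (SE 0.17), were not called in the authors' deposited table.

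Genes for turnover and phosphorylation of MCL1 and BH3-only proteins moved in both directions. Of 12, 1 rose and 2 fell, beside 16.6% and 17.4% over all tested genes, with a median of -0.18 that became 0.11 under total-count scaling, with 1 higher and 0 lower. Ywhaz, a 14-3-3 protein that sequesters phosphorylated BAD, was at 0.34 (SE 0.08, adjusted Wald p = 3.33e-04) in the authors' deposited table. Mapk9, which encodes JNK2, was at -0.38 (SE 0.07, adjusted Wald p = 1.04e-06) and Ywhae at -0.18 (SE 0.06, adjusted Wald p = 0.00619) in the authors' deposited table. Neither of these falls was called under total-count scaling, where Ywhae turned to 0.11. Akt2 was listed at -0.18 (SE 0.09, adjusted Wald p = 0.117) in the authors' deposited table.

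**Figure D4:**
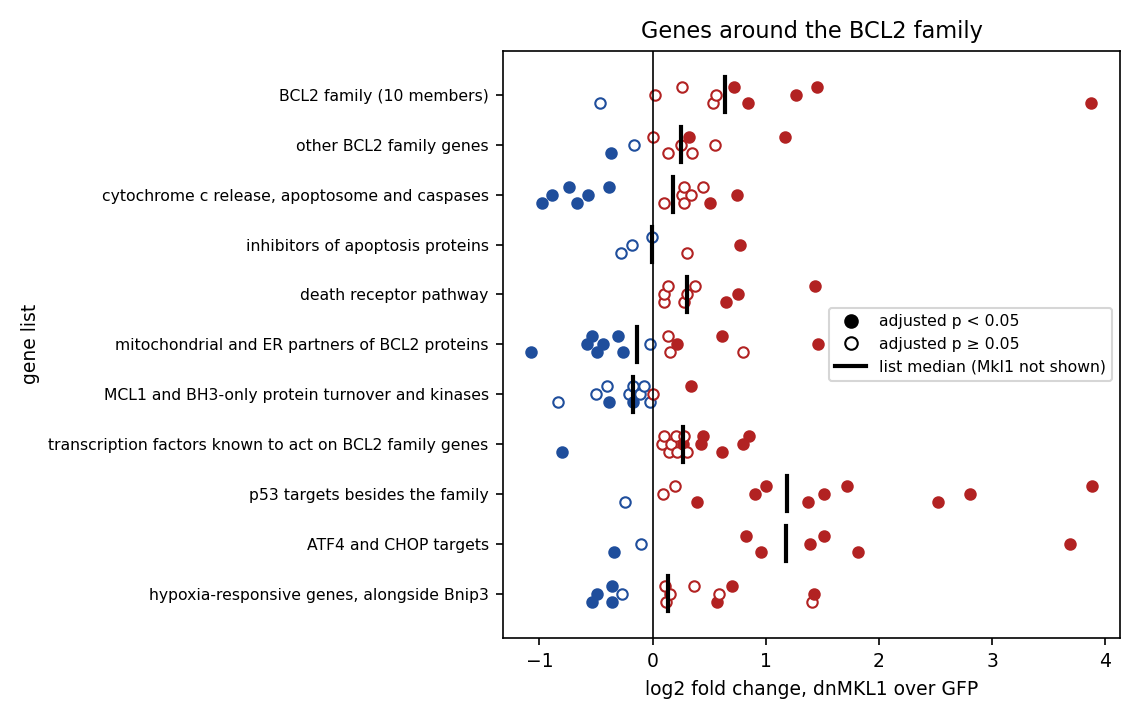
Log2 fold change of each tested gene in the BCL2 family and in 10 lists of related genes (1 row a list, red above 0 and blue below, filled where called, black bar at the list's median, Mkl1 not drawn). Points of the p53 list and the ATF4 and CHOP list lie mostly to the right of 0, with medians of 1.19 and 1.18, while the cytochrome c and partner lists hold called genes on both sides.

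Transcription factors known to act on the family were measured at the transcript level only. Of 16 tested, 7 were higher and 1 lower, with Mkl1, which the vector carries, among the higher. Over all tested genes 16.6% were higher and 17.4% lower. Srf fell, at -0.80 (SE 0.10, adjusted Wald p = 2.55e-13), whereas Hif1a rose by 0.86 (SE 0.13, adjusted Wald p = 1.56e-09) and Mkl2 by 0.43 (SE 0.08, adjusted Wald p = 3.15e-06) in the authors' deposited table. Trp53, which encodes p53, and Ddit3, which encodes the stress factor CHOP, were named after their values were seen, as were Atf4, Foxo1 and Foxo3. Trp53 and Ddit3 rose by 0.61 (SE 0.13, adjusted Wald p = 2.24e-05) and 0.80 (SE 0.25, adjusted Wald p = 0.00650) in the authors' deposited table. Atf4, at 0.15 (SE 0.12, adjusted Wald p = 0.398), and the FOXO genes Foxo1, at 0.21 (SE 0.14, adjusted Wald p = 0.276), and Foxo3, at 0.27 (SE 0.31, adjusted Wald p = 0.562), were not called in the authors' deposited table. Under total-count scaling 13 of the 16 were higher and 1 lower, beside 40.4% and 6.6% of all tested genes.

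Of 12 p53 targets outside the family, 9 rose and 0 fell, with a median of 1.19. Over all tested genes 16.6% were higher and 17.4% lower. The authors' deposited table gave 2.80 (SE 0.24, adjusted Wald p = 2.91e-29) for Cdkn1a, the cell cycle inhibitor p21, and 2.52 (SE 0.26, adjusted Wald p = 2.13e-19) for Eda2r, a receptor of the TNF family. Gdf15, a secreted stress factor, rose by 3.88 (SE 0.43, adjusted Wald p = 2.34e-17) and Phlda3, an inhibitor of AKT, by 1.38 (SE 0.17, adjusted Wald p = 5.75e-15) in the authors' deposited table. Ccng1, Perp and Btg2, named after their values were seen, were not called, at -0.24 (SE 0.11), 0.09 (SE 0.14) and 0.20 (SE 0.22). The family members Bax, Bbc3 and Pmaip1, which p53 is also known to induce, had values of 0.72, 1.45 and 3.88 in the authors' deposited table. Whether p53 had a part in the rise of these members was not tested. Of 8 ATF4 and CHOP targets, 6 rose and 1 fell (Vldlr), with a median of 1.18. Trib3, a pseudokinase induced by CHOP, rose by 3.69 (SE 0.39, adjusted Wald p = 8.82e-19), Sesn2, which is also on the p53 list, by 1.52 (SE 0.20, adjusted Wald p = 5.08e-12), Ppp1r15a by 0.83 (SE 0.17, adjusted Wald p = 5.73e-06) and Ddit4 by 0.96 (SE 0.22, adjusted Wald p = 1.03e-04) in the authors' deposited table. Under total-count scaling 11 and 6 genes of these lists were higher and 0 lower in both. That scaling gave 40.4% higher and 6.6% lower over all tested genes.

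Hypoxia-responsive genes, set beside Bnip3, went in both directions, with 3 of 14 higher and 4 lower and a median of 0.13. In all, 7 of 14 were called, beside 34.1% of all tested genes (16.6% higher and 17.4% lower). The glucose transporter gene Slc2a1 rose by 1.43 (SE 0.19, adjusted Wald p = 1.44e-12) and P4ha1, of collagen hydroxylation, by 0.57 (SE 0.11, adjusted Wald p = 2.14e-06) in the authors' deposited table. Vegfa was at -0.36 (SE 0.07, adjusted Wald p = 1.68e-05) and Higd1a at -0.36 (SE 0.09, adjusted Wald p = 3.19e-04) in the authors' deposited table. Neither fall was called under total-count scaling, where 7 were higher and 0 lower beside 40.4% and 6.6% of all tested genes.

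Lists of cell type markers differed from each other. Over all tested genes 16.6% were higher and 17.4% lower. Of 8 cardiomyocyte markers all were detected, 6 were lower and 0 higher. Their summed implied means were 1438325 normalized counts in GFP and 789908 in dnMKL1, mostly from Myh6 (768373 and 421599) and Actc1 (326267 and 111228). Of 12 fibroblast markers 5 were higher and 0 lower, with sums of 5228 and 8877. Fbln1 (748 and 1944) and Gsn (876 and 1951) had the largest log2 fold changes, and Col1a1, Col1a2 and Col3a1 were the other called genes. Col3a1 and the uncalled genes were named after their values were seen. Tcf21, Postn, Dcn, Lum, Dpt, Pdgfra and Mfap5 were not called, at 0.79, 0.51, 0.27, 0.25, 0.25, 0.06 and 0.02. Of 12 endothelial markers 0 were called and 0 had an unadjusted p-value under 0.05, with sums of 4373 and 4445. Mural markers had 3 of 9 higher and 1 lower (sums of 18254 and 15947), where the lower sum rests on Acta2. The other 8 all had positive log2 fold changes, with sums of 7800 and 10949. Abcc9 (6332 and 7773, not called) and Cspg4 (501 and 2019) made up most of these sums. Cspg4, Myh11 and Tagln were the 3 called higher. Notch3, Pdgfrb, Kcnj8 and Rgs5, named after their values were seen, were not called, at 0.45, 0.18, 0.03 and 0.01. Of the macrophage markers 1 of 9 tested was higher (sums of 175 and 154). Of the erythroid markers, Hba-a1 and Hba-a2 were listed at 0. Alas2 and Slc4a1, with base means of 6.87 and 1.45, were tested and not called. Under total-count scaling 4 cardiomyocyte markers were lower and 0 higher, and 8 fibroblast markers were higher and 0 lower. Mural markers then had 5 higher and 1 lower, macrophage markers 1 higher and 0 lower, and endothelial markers 0 called. That scaling gave 40.4% higher and 6.6% lower over all tested genes. The part of other cell types in the rise of the 5 members was not tested, and in sorted bulk cells fewer cells of a type and less RNA per cell cannot be told apart.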

How the data were processed

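RNA was measured by polyA RNA sequencing of 10 libraries, 5 per group. Per the submitters' processing notes, CASAVA 1.8, STAR 2.5.3a and featureCounts of Subread 1.5.2 were used with genome build mm10; which annotation was counted, and whether strand was used, is not given in the sources used here. Per the file headers, the deposited table is a DESeq2-type result: the base mean is a signal in normalized counts, the fold change and its SE are on the log2 scale, the Wald statistic is a score, and the p-value and adjusted p-value are the authors'. The deposited p-values were recomputed from the Wald score (largest gap 2.74e-07) and the adjusted ones by Benjamini-Hochberg (largest gap 1.44e-07). No column of single libraries was used (0 such columns).

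Implied group means were solved from base mean and fold change, weighting both groups alike. A gene with a lone read has a base mean fixed by that library's size factor, which gave all 10 factors; the sign of its fold change gave the group. Intervals are 95% Wald intervals. Reads carry no molecular identifiers, and implied read numbers show counting depth only. Exon lengths and positions came from GENCODE vM21 on GRCm38, the assembly of mm10. Calculations used Python 3.11.15, pandas 2.3.3 and scipy 1.17.1 and were tested on simulated data. The members and lists were chosen with earlier results of these data known. Of each list, at most 4 genes with the smallest p-values are named, besides those stated as chosen after their values were seen. Values of 1 listed gene are not reported here.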

Additional observations from a re-analysis of the deposited data

How the results depend on the processing

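No paired analysis was possible because values of single libraries were not analysed; the fits that each leave out 1 library and the edgeR and DESeq2 fits were not run either, and whether 1 library decides a value is unknown. The 5 members called, all higher, became 2 with a base mean of at least 100, where 5 of the 10 could be tested, and 8 with total-count scaling; 0 were lower under every setting. The members' median log2 fold change of 0.64 was 0.93 with total-count scaling, by the shift itself. That scaling gave a call to Mcl1, Bcl2l11 and Bnip3, and a threshold of 0.1 to Bcl2l11 and Bnip3; where they were tested, no setting ended the call of Bcl2, Bcl2l1, Bax, Bbc3 or Pmaip1.

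With total-count scaling, the calls in the other lists went from 3 to 5 (other BCL2 family genes), from 1 to 3 (inhibitors of apoptosis), from 3 to 8 (death receptor pathway), from 3 to 1 (turnover and kinases) and from 8 to 14 (transcription factors). The share called over all tested genes went from 34.1% to 47%. Total-count scaling turned Birc5 to 0.013, Birc6 to 0.11, Akt2 to 0.11 and Ywhae to 0.11, none of them called. With an absolute log2 fold change of at least 0.5, calls fell to 1 for other BCL2 family genes, 5 for the partners, 0 for turnover and kinases, 5 for transcription factors and 4 for hypoxia-responsive genes, since fewer genes can pass. With a base mean of at least 100, calls fell to 0 for inhibitors of apoptosis and 0 for the death receptor pathway, since the called genes were left out.

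Depth limits Pmaip1, Bid and Bak1 most. Which scaling is closer to RNA per cell was not tested.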
